A study of Mus musculus with 16 samples.

Results

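The genes described here are 10 genes of the circadian clock and its direct output, Arntl, Clock, Npas2, Per1, Per2, Per3, Nr1d1, Nr1d2, Dbp and Hlf. Every probe that the array design names for one of these symbols was taken, which gave 16 of the 41174 probes on the array. Of these, 9 probes from 8 genes were bright enough in heart to be tested, among 16808 such probes and 12330 genes in all. A probe was kept where 4 or more of the 16 arrays had a heart signal well above background. Npas2 was above background on 0 arrays and Per3 on 1, so neither was tested. Members were taken by gene name, from a list drawn up with earlier results of these data known.

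Heart RNA was profiled from strain-matched mice, 12 weeks old, in 4 genotype groups of 4 hearts each, with 1 heart per array. MuRF1 (gene symbol Trim63) and MuRF2 (Trim55) are related ubiquitin ligases of striated muscle. The groups were wild type (MuRF1 +/+ and MuRF2 +/+), double null (both genes -/-), and a pair of groups with a single functional allele, each called here by the gene that keeps it. MuRF2-het hearts were MuRF1 -/- with MuRF2 +/-, and MuRF1-het hearts were MuRF1 +/- with MuRF2 -/-. No group received a treatment. Heart RNA was labelled with Cy5 and hybridised against a common reference in Cy3, made by pooling RNA of whole C57BL/6 pups on postnatal day 1, and values are log2 ratios of heart to reference. The labels call the 4 hearts of a group biological replicates. The limma p-values rest on the spread between hearts of a group, pooled over the 4 groups, also where the groups compared differ in spread. All MuRF2-het hearts lay on 1 slide and all MuRF1-het hearts on another, so their spread holds no part from slide to slide. The labels do not state the hour at which the hearts were collected.

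The circadian clock is a transcriptional feedback loop that runs in most cells, cardiac myocytes included. ARNTL (also called BMAL1) pairs with CLOCK or its relative NPAS2 and switches on genes that carry an E-box in their promoter, among them the Per genes, whose proteins then repress ARNTL and CLOCK. The same activators switch on Nr1d1 and Nr1d2, nuclear receptors (REV-ERBα and REV-ERBβ) that repress Arntl, and the output factors Dbp and Hlf, which bind D-box sites. RNA of Arntl therefore peaks at about the opposite time of day from RNA of Per, Nr1d1 and Dbp, and in a tissue sampled at a single time the level of each gene depends on the hour.

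Nr1d1 and Hlf were lower in double null hearts than in wild type hearts, by 0.90 and 0.62 on the log2 scale, and Dbp was higher in MuRF1-het hearts than in wild type, by 1.04. With each of the 8 hearts of a comparison left out in turn, Nr1d1 passed in 8 fits, Hlf in 2 and Dbp in 1. The fall of Nr1d1 did not pass with the brightness of each array as a covariate (limma, adjusted p = 0.138). Nor did it pass within either of the slides that double null and wild type hearts shared, with 2 hearts of each genotype on a slide. On slide 1 alone 0% of all genes passed, so the test there could not decide, and on slide 3 alone 19.1% did. The Nr1d1 probe was above background on 2 of the 4 double null arrays. Nr1d1, Hlf and Arntl also differed between the double null and MuRF1-het groups, Arntl not on Cy5 intensity alone. Clock, Per1, Per2 and Nr1d2 passed the test in none of the 6 comparisons between groups. Within the wild type group the 8 genes differed between hearts more than most genes did, and Arntl and Clock deviated in the direction opposite to Per2, Dbp and Hlf. The wild type hearts lay 2 on each of 2 slides, and between these slides no gene passed (limma, adjusted p = 0.999 for each of the 8). Over all 16 arrays Arntl and Clock against Dbp did not pass (permutation test of r, adjusted p = 0.0647 for each), nor did Clock against Hlf (0.0936).

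A few sequences show which parts of these genes the results rest on. Nr1d1 had 2 kept probes whose differences had the same sign in each comparison, but only the brighter probe passed a test. Arntl had 1 probe. These 60-base probes are shown as the array files give them, from 5′ to 3′.
Nr1d1 probe A_51_P223776: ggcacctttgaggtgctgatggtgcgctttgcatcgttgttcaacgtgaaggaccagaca
Nr1d1 probe A_52_P130952: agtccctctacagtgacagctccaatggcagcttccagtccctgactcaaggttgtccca
Arntl probe A_52_P267651: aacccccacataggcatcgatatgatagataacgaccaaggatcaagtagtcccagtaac

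Promoter windows of 250 bases before to 50 bases after a transcription start were available from RefSeq (GRCm38.p6) for 9 of the 10 genes, 13 windows in all. They were searched on both strands for the E-box CACGTG, the D-box TTATGTAA or TTACGTAA, and the core of the REV-ERB and ROR site, TAGGTCA or TGGGTCA. Among all 32817 windows the E-box was found in 7.15%, the D-box in 1.05% and the REV-ERB and ROR core in 6.46%. Of the genes with a window, 3 held a match and 6 held none. The match in Per1 was an E-box at -166 to -161 from the start, in capitals in the stretch at chr11:69098743-69098828 (plus strand). The match in Arntl was a REV-ERB and ROR core at 30 to 36 bases after the start, in capitals in the stretch at chr7:113207531-113207557 (plus strand). Per3 held the D-box TTATGTAA at -205 to -198 and again at -158 to -151.
Per1 promoter: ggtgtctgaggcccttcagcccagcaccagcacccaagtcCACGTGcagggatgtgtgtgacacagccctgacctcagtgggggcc
Arntl, after the start: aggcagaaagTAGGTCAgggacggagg

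Facts of the whole series bear on all that follows. Trim63, the targeted MuRF1 gene, averaged 2.63 in wild type, -0.72 in double null, -0.64 in MuRF2-het and 1.94 in MuRF1-het hearts, in the order of the functional MuRF1 alleles on the labels. Trim55, the MuRF2 gene, averaged -1.73 in wild type, -1.35 in double null, -1.03 in MuRF2-het and -1.28 in MuRF1-het hearts, and none of its differences passed (adjusted p of 0.133 to 0.851). It was thus not lower in the hearts labelled MuRF2 -/-; no label states whether its probe lies in the deleted part, so Trim55 gave no check of the MuRF2 labels. The arrays differed in brightness: the number of probes above background in Cy5 was 15165 to 16662 in wild type and 16128 to 17383 in MuRF1-het, but 6028 to 14481 in double null and 6397 to 15058 in MuRF2-het. Wild type and double null hearts 1 and 2 shared slide 1 and hearts 3 and 4 shared slide 3, while the MuRF2-het hearts filled slide 2 and the MuRF1-het hearts filled slide 4, so that for these 2 groups slide and genotype cannot be told apart. All 6 heart muscle markers were measured, 5 of them above background on all arrays, and 2 of them, Myh6 and Ryr2, fell in double null against wild type. Of 4 skeletal muscle markers 3 passed in that comparison, 2 higher and 1 lower. Of 4 endothelial markers, 3 fell in double null against wild type, and the mean of the 4 per array ran from -0.04 to 0.24 in double null, 0.68 to 0.74 in wild type, 0.04 to 0.66 in MuRF2-het and 0.56 to 0.90 in MuRF1-het hearts, with none of the 4 below background on all arrays. Lum, 1 of 4 fibroblast markers, and Scgb1a1, 1 of 2 tested lung markers, were 0.74 and 0.53 higher in double null than in wild type (adjusted p = 0.0138 and 0.0216), and Scgb1a1 was also 1.00 and 0.98 higher in double null and MuRF2-het than in MuRF1-het hearts (adjusted p = 0.000464 and 0.00318). Adgre1, 1 of 4 macrophage markers, was -0.62 apart in MuRF1-het against wild type (adjusted p = 0.0394). None of 4 adipocyte and 2 erythroid markers passed by limma in any comparison, with 0 to 4 and 0 to 1 at an unadjusted p under 0.05. Of all genes, 9.72% to 40% had such a p in the 6 comparisons. Of 4 lymphocyte markers 0 were bright enough to test. The part of brightness and of other cell types in the differences below was not tested beyond the values given there, and in whole heart fewer cells of a type and less RNA per cell cannot be told apart.

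**Figure D1:**
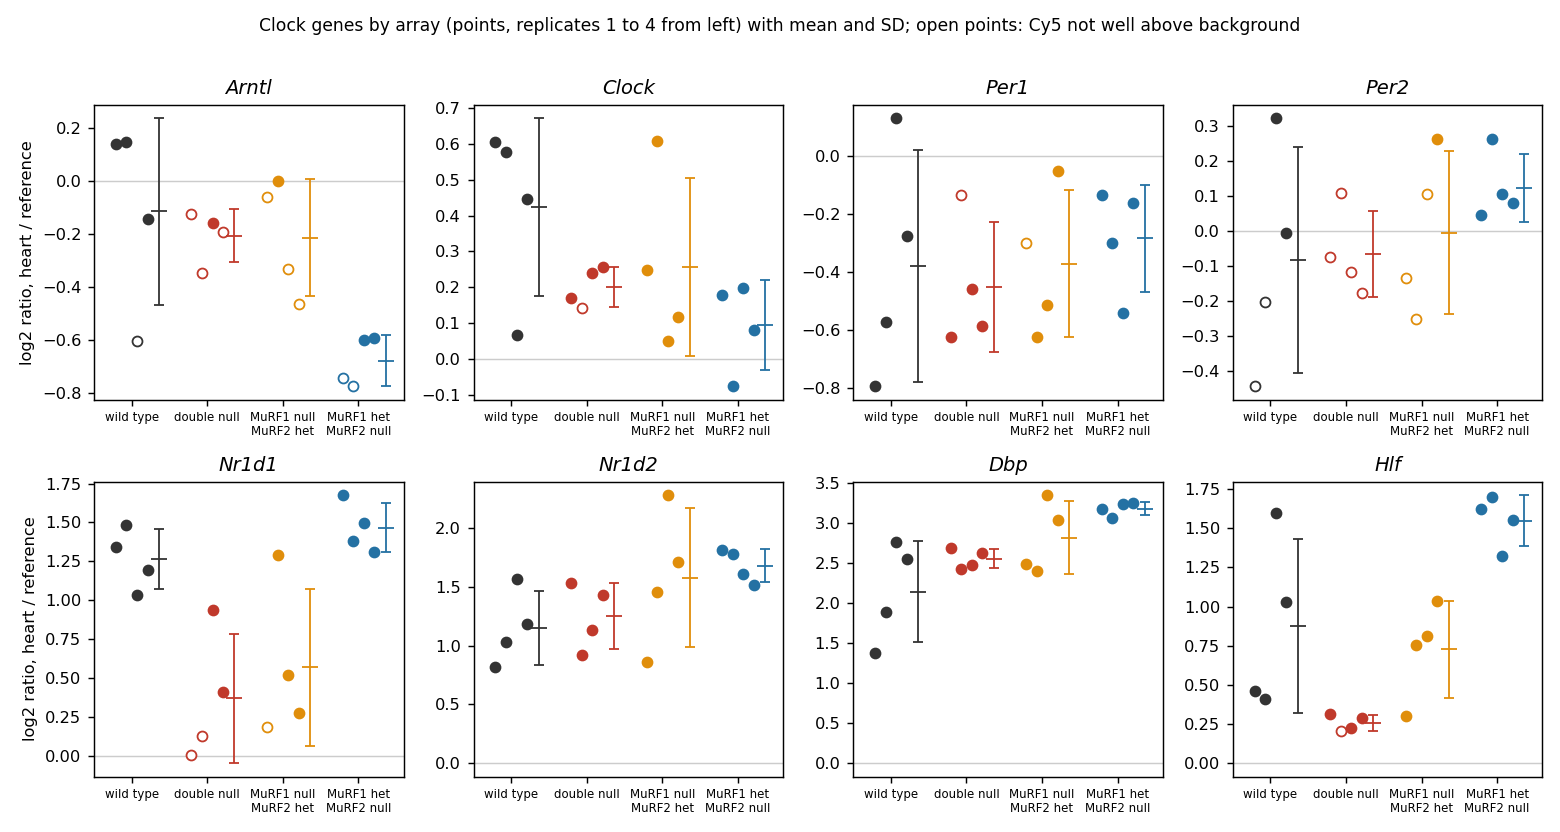
Log2 ratio of heart to reference (vertical axis, a separate scale per gene) on each of 16 arrays for the 8 tested genes, in 4 genotype groups of 4 hearts. Points are hearts 1 to 4 from left to right, open where Cy5 was not well above background, and the bar beside them is the mean with SD; Nr1d1 and Hlf of every double null heart lie under every wild type heart, and Dbp of every MuRF1-het heart lies over every wild type heart.

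Double null hearts were compared with wild type to ask what loss of both ligases changes. Of the 8 tested genes, 2 passed (adjusted p under 0.05), both lower, where 22.3% of all genes passed, 12.1% as lower and 10.3% as higher. The same 2 had an unadjusted p under 0.05, against 38.6% of all genes. The 2 groups did not overlap for the same 2 genes, Nr1d1 and Hlf, against 25.4% of all genes. The median difference over the 8 genes was -0.08, and over all genes 0.01. The share of clock genes that passed was therefore close to that of all genes.

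MuRF2-het and MuRF1-het hearts were compared with the same wild type hearts, so the 3 comparisons share their controls. In MuRF2-het hearts none of the 8 genes passed by limma, with 2 at an unadjusted p under 0.05 (Nr1d1 and Dbp), where 1.03% of all genes passed (0.316% as higher and 0.714% as lower) and 23.1% had such an unadjusted p; none was free of overlap, against 12.7% of all genes. In MuRF1-het hearts 1 of the 8 genes passed, Dbp, which was higher, where 1.95% of all genes passed, 0.673% as higher and 1.28% as lower. An unadjusted p under 0.05 was found for 5 of the 8, against 16.2% of all genes. Dbp was also the 1 gene whose groups did not overlap, against 20.7% of all genes. The median difference over the 8 genes was 0.20 there and -0.05 in MuRF2-het hearts.

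The mutant groups were also compared with each other. Double null and MuRF2-het hearts differ in genotype only in the second copy of MuRF2, but they also lay on different slides. Between them none of the 8 genes passed by limma and 1 had an unadjusted p under 0.05, Hlf at 0.0400. There 0.349% of all genes passed (0.162% as higher and 0.187% as lower) and 9.72% had such an unadjusted p. None of the 8 was free of overlap, against 2.84% of all genes. Between double null and MuRF1-het hearts 3 of 8 passed, Arntl as higher and Nr1d1 and Hlf as lower, where 26.3% of all genes passed, 13.6% as higher and 12.7% as lower. An unadjusted p under 0.05 was found for 4 of the 8, against 40% of all genes. There 4 of 8 did not overlap, these 3 and Dbp, against 28.8% of all genes. Between MuRF2-het and MuRF1-het hearts 2 of 8 passed, Nr1d1 and Hlf, both lower, where 8.54% of all genes passed, 4.56% as higher and 3.98% as lower. Unadjusted, 3 of the 8 were under 0.05, against 28.4% of all genes. Those 2 genes and Arntl, 3 of 8, did not overlap there, against 19.9% of all genes.

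**Figure D2:**
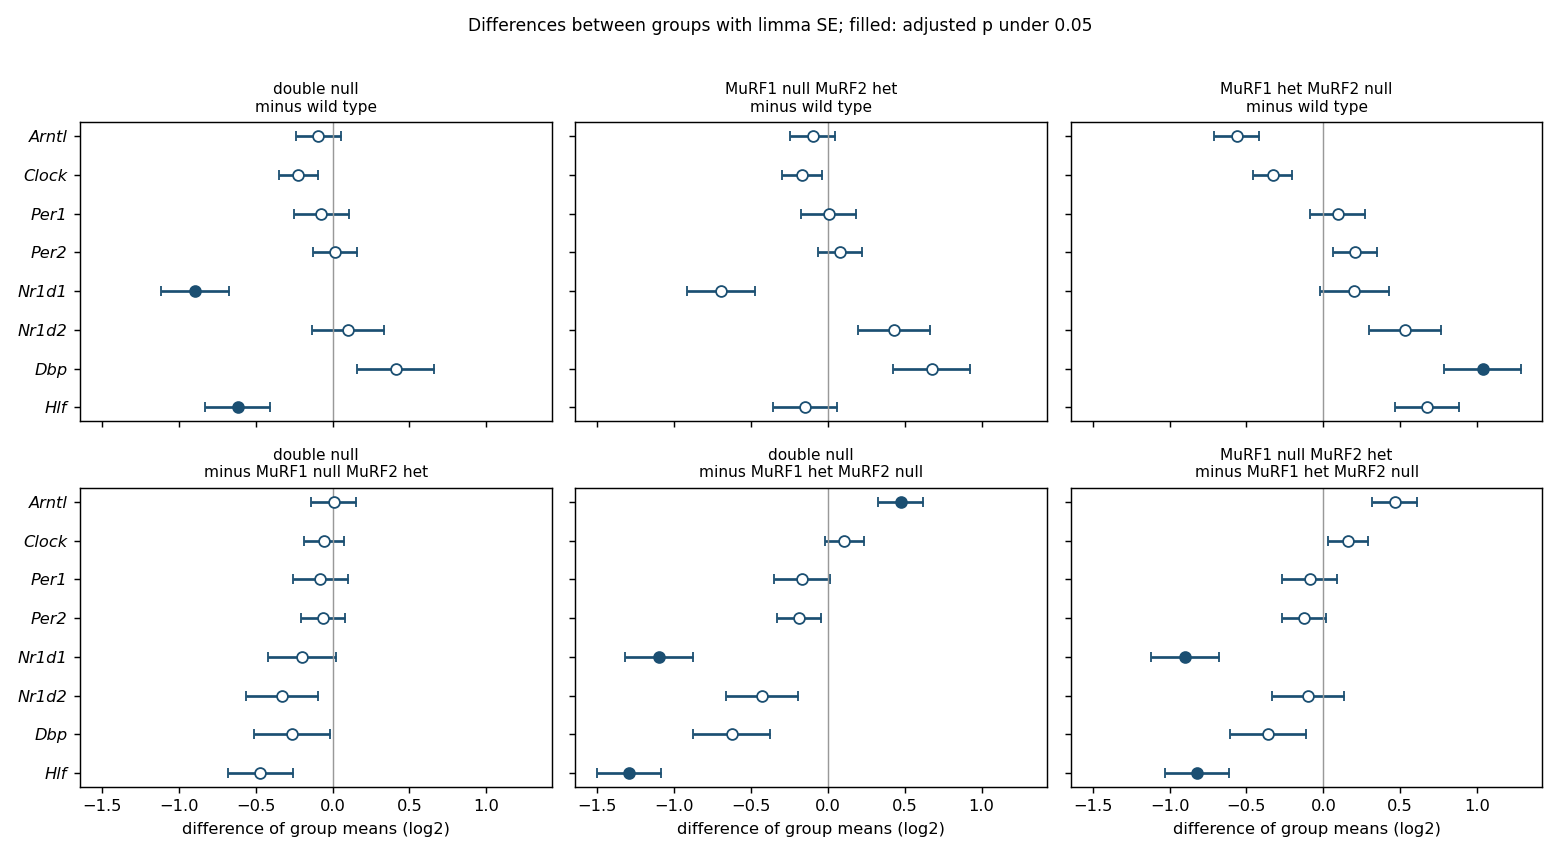
Difference of group means (log2, horizontal axis) with its limma standard error for the 8 tested genes in the 6 comparisons, the first group minus the second; filled points have an adjusted p under 0.05. Nr1d1 and Hlf pass in 3 panels each, always with the double null or MuRF2-het group lower, and Dbp and Arntl pass in 1 panel each.

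Arntl encodes the activator that pairs with CLOCK. In wild type hearts 1 to 4 its log2 ratio was 0.14, 0.15, -0.60 and -0.14, in double null hearts -0.12, -0.35, -0.16 and -0.19. It was -0.06, 0.00, -0.33 and -0.47 in MuRF2-het hearts, and -0.74, -0.78, -0.60 and -0.59 in MuRF1-het hearts. The last group lay lowest, overlapping wild type through wild type heart 3 and not overlapping either of the other groups. Arntl was dim: its probe was above background in 3 wild type, 1 double null, 1 MuRF2-het and 2 MuRF1-het hearts. The means were -0.11 ± 0.35 (SD, n = 4), -0.21 ± 0.10, -0.21 ± 0.22 and -0.68 ± 0.10 in the same order. Double null hearts were 0.47 ± 0.15 (SE) above MuRF1-het hearts, 1.39-fold (adjusted p = 0.0266). The difference of MuRF1-het from wild type, -0.56 ± 0.15, did not pass (adjusted p = 0.0582), nor did that between the 2 groups with 1 functional allele, 0.46 ± 0.15 (adjusted p = 0.0575). The call between double null and MuRF1-het hearts was lost without double null heart 1 or 4 or MuRF1-het heart 1 or 2 (adjusted p of 0.0540 to 0.0717), and on Cy5 intensity alone the difference of Arntl was 0.01 (adjusted p = 0.957). The mean log2 Cy5 of Arntl was 6.32 in MuRF1-het and 6.28 in double null hearts, while the Cy3 of the shared reference was 6.99 in MuRF1-het against 6.48 in double null, 6.53 in MuRF2-het and 6.64 in wild type. The low ratio of Arntl in MuRF1-het hearts went with a brighter reference signal on that slide. The part of slide brightness in the ratios of Arntl was not tested. Without wild type heart 3 the difference of MuRF1-het from wild type was -0.73 (adjusted p = 0.00808), and on Cy5 intensity alone, with all hearts, it was -0.28 (adjusted p = 0.187).

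Clock, the partner of ARNTL, had log2 ratios of 0.61, 0.58, 0.07 and 0.45 in wild type hearts and 0.17, 0.14, 0.24 and 0.26 in double null hearts. In MuRF2-het hearts they were 0.25, 0.61, 0.05 and 0.12, and in MuRF1-het hearts 0.18, -0.08, 0.20 and 0.08. Wild type hearts 1, 2 and 4 were higher than all but 1 of the 12 mutant hearts, while wild type heart 3 lay among them. The means were 0.42 ± 0.25 (SD, n = 4) in wild type, 0.26 ± 0.25 in MuRF2-het, 0.20 ± 0.06 in double null and 0.09 ± 0.13 in MuRF1-het, and no neighbours in this order passed the test. The difference from wild type furthest from 0 was that of MuRF1-het, -0.33 ± 0.13 (SE; adjusted p = 0.205). The array holds 4 probes for Clock; the kept probe was above background on 15 arrays and the others on 0, 1 and 3. Npas2, which can stand in for CLOCK, was above background on 0 arrays, and without the filter on dim probes its differences and those of Per3 lay between -0.16 and 0.09.

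Per1 and Per2 encode the repressors that act back on ARNTL and CLOCK. Per1 stood at -0.79, -0.57, 0.13 and -0.28 in wild type hearts, and -0.62, -0.13, -0.46 and -0.59 in double null hearts. It stood at -0.30, -0.62, -0.51 and -0.05 in MuRF2-het hearts, and -0.13, -0.30, -0.54 and -0.16 in MuRF1-het hearts. All 4 groups overlapped, with wild type hearts 1 and 3 as the lowest and the highest of the 16. The group means ran from -0.45 ± 0.22 (SD, n = 4) in double null to -0.28 ± 0.19 in MuRF1-het, with -0.38 ± 0.40 in wild type and -0.37 ± 0.25 in MuRF2-het between them. No difference in Per1 passed, the adjusted p-values lying between 0.507 and 0.988. With each array centred on its median in place of loess, Per1 in MuRF2-het against wild type turned from 0.01 to -0.66 (adjusted p = 0.0385), a setting under which the median of all genes there was -0.51 and 59.8% of all genes passed. On slide 3 alone Per1 was lower in double null than in wild type by -0.45 (adjusted p = 0.0439).

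Per2 stood at -0.44, -0.20, 0.32 and -0.01 in wild type hearts and -0.08, 0.11, -0.12 and -0.18 in double null hearts. It stood at -0.13, -0.25, 0.10 and 0.26 in MuRF2-het hearts, and 0.04, 0.26, 0.11 and 0.08 in MuRF1-het hearts. The groups overlapped, and wild type hearts 1 and 3 were again the lowest and the highest. Its kept probe was above background in all 4 MuRF1-het hearts, 2 wild type hearts, 1 MuRF2-het heart and no double null heart. In double null hearts Per2 therefore has only a bound. On Cy5 alone it was at least 1.26-fold higher in MuRF1-het hearts, with a mean normalised log2 Cy5 of 6.54 against 6.20, while the log2 ratio to the reference differed by -0.19 ± 0.14 (SE), 1.14-fold, and did not pass (adjusted p = 0.337), so the size differs between the scales. The bound sets the bright group's mean against the higher, on each dim array, of the probe's own signal and the lowest signal among probes above background, and per-channel values without dye swaps are open to dye bias. The Cy3 of the shared reference at the kept Per2 probe was also brighter in MuRF1-het hearts, with a mean log2 of 6.57 against 6.20 in double null. The part of slide brightness in the bound was not tested. The second probe for Per2 was above background on 0 arrays. No difference in Per2 passed, with adjusted p-values between 0.337 and 0.973.

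Nr1d1 encodes REV-ERBα, the repressor of Arntl. In wild type hearts it stood at 1.35, 1.49, 1.03 and 1.19, and in double null hearts at 0.00, 0.12, 0.94 and 0.41. It was 0.18, 1.29, 0.52 and 0.28 in MuRF2-het hearts and 1.68, 1.38, 1.50 and 1.31 in MuRF1-het hearts. Every double null heart was under every wild type heart, and in the MuRF2-het group heart 2 alone reached the wild type range. The order of the means was MuRF1-het (1.47 ± 0.16; SD, n = 4), wild type (1.26 ± 0.20), MuRF2-het (0.57 ± 0.50) and double null (0.37 ± 0.42). The first and second in that order did not pass the test (0.20 ± 0.22 SE, adjusted p = 0.734), nor did the third and last (-0.20 ± 0.22, adjusted p = 0.882). Nr1d1 fell by 0.90 ± 0.22 (SE) on the log2 scale in double null against wild type, 1.86-fold (adjusted p = 0.0114). It was 2.14-fold lower in double null than in MuRF1-het hearts (-1.10 ± 0.22, adjusted p = 0.00279) and 1.86-fold lower in MuRF2-het than in MuRF1-het hearts (-0.90 ± 0.22, adjusted p = 0.0260). The difference of MuRF2-het from wild type, -0.70 ± 0.22, did not pass (adjusted p = 0.111), but did without heart 2 of that group (-0.94, adjusted p = 0.00988).

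The fall of Nr1d1 in double null hearts passed with each of the 8 hearts left out in turn (adjusted p of 0.00316 to 0.0388) and with slide as a block (adjusted p = 0.0170). With the brightness of each array as a covariate it was -0.48 (adjusted p = 0.138), and within slide 1 and slide 3 it was -1.35 and -0.44 (adjusted p = 0.106 and 0.0717). With 2 hearts of each genotype on a slide, 0% of all genes passed on slide 1 alone, so the test there could not decide. On slide 3 alone 19.1% of all genes passed. The probe behind these values, A_51_P223776, was above background on all wild type and MuRF1-het arrays, on 2 double null and on 3 MuRF2-het arrays. The second probe shown for Nr1d1, A_52_P130952, was above background on 4 arrays, none of them double null or MuRF2-het. Its difference between double null and wild type was -0.11 ± 0.07 (SE, limma adjusted p = 0.241). This second probe was above background on only 2 of the 4 wild type arrays, so no bound on the fold is given. The third probe of Nr1d1 was above background on 0 arrays. Of the 8 differences between MuRF2-het and MuRF1-het hearts with 1 heart left out, Nr1d1 passed in 1, that without MuRF2-het heart 2 (-1.14, adjusted p = 0.00253).

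Nr1d2 encodes REV-ERBβ, the close relative of REV-ERBα. Its probe was above background on all 16 arrays. The log2 ratios were 0.82, 1.03, 1.57 and 1.18 in wild type and 1.53, 0.92, 1.13 and 1.43 in double null hearts. They were 0.86, 1.46, 2.28 and 1.71 in MuRF2-het hearts and 1.81, 1.78, 1.61 and 1.51 in MuRF1-het hearts. All groups overlapped, although of the wild type hearts only heart 3 reached the range of the MuRF1-het group. Nr1d2 did not show the low double null level of Nr1d1: its mean there was 1.25 ± 0.28 (SD, n = 4) against 1.15 ± 0.32 in wild type, a difference of 0.10 ± 0.23 (SE; adjusted p = 0.777). The means were 1.58 ± 0.59 in MuRF2-het and 1.68 ± 0.14 in MuRF1-het, 0.43 ± 0.23 and 0.53 ± 0.23 above wild type (adjusted p = 0.271 and 0.270). Whether Nr1d1 and Nr1d2 differed from each other in their response was not tested.

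Dbp encodes a D-box activator that is among the strongest outputs of the clock in many tissues. Its probe too was above background on all 16 arrays. Dbp stood at 1.37, 1.89, 2.76 and 2.54 in wild type hearts and 2.68, 2.43, 2.47 and 2.62 in double null hearts. It stood at 2.48, 2.40, 3.35 and 3.03 in MuRF2-het hearts, and 3.17, 3.06, 3.23 and 3.24 in MuRF1-het hearts. Wild type hearts 1 and 2 were the lowest of all 16, while wild type hearts 3 and 4 lay within the range of the other mutant groups and under the MuRF1-het hearts. The means rank as MuRF1-het (3.18 ± 0.08; SD, n = 4), MuRF2-het (2.82 ± 0.45), double null (2.55 ± 0.12) and wild type (2.14 ± 0.63), and no neighbours in that order passed the test. Dbp was 1.04 ± 0.25 (SE) higher in MuRF1-het than in wild type hearts, 2.05-fold (adjusted p = 0.0434). The differences of MuRF2-het and double null from wild type were 0.68 ± 0.25 and 0.41 ± 0.25 (adjusted p = 0.143 and 0.236). Double null hearts were all under MuRF1-het hearts, by -0.63 ± 0.25, but this did not pass (adjusted p = 0.0738). The Cy3 of the shared reference at Dbp also differed between groups. Its mean log2 was 8.88 in MuRF1-het, 8.02 in wild type, 7.40 in MuRF2-het and 7.35 in double null hearts. The mean log2 Cy5 of Dbp was 12.05 in MuRF1-het and 10.16 in wild type hearts. The part of slide brightness in the ratios of Dbp was not tested.

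The call on Dbp rested on the wild type hearts it was set against. Against wild type hearts 1 and 2 alone, MuRF1-het hearts were 1.55 higher (adjusted p = 0.0109), and against wild type hearts 3 and 4 alone 0.53 higher (adjusted p = 0.447). With 1 heart left out, Dbp passed in 1 of 8 fits, that without wild type heart 3 (1.24, adjusted p = 0.0174), and without any of the other 7 the adjusted p was 0.0542 to 0.142.

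Hlf encodes a D-box binding factor of the same family as DBP. It stood at 0.46, 0.41, 1.60 and 1.03 in wild type hearts and 0.31, 0.20, 0.22 and 0.29 in double null hearts. In MuRF2-het hearts it was 0.30, 0.76, 0.81 and 1.04, and in MuRF1-het hearts 1.63, 1.70, 1.32 and 1.56. The 4 double null hearts were close together and under every wild type heart, although wild type hearts 1 and 2 were nearer to them than to wild type hearts 3 and 4. The means were 1.55 ± 0.16 (SD, n = 4) in MuRF1-het, 0.87 ± 0.56 in wild type, 0.73 ± 0.31 in MuRF2-het and 0.26 ± 0.05 in double null, and neighbours in that order did not pass the test (adjusted p of 0.109, 0.687 and 0.477). Unadjusted, the limma p was 0.00543 for the first of these differences and 0.0400 for the last, both under 0.05 before adjustment over all genes. Hlf was above background on all arrays but double null heart 2.

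Hlf was 2.45-fold lower in double null than in MuRF1-het hearts (-1.29 ± 0.21 SE, adjusted p = 0.000753), a difference that passed under each of the 22 other settings in which Hlf was tested (all but the filter for probes above background on all 16 arrays, which left it out). It was 1.77-fold lower in MuRF2-het than in MuRF1-het hearts (-0.82 ± 0.21, adjusted p = 0.0285), which passed in 3 of 8 fits with 1 heart left out. Without MuRF2-het heart 1 or 3, or MuRF1-het heart 1, 2 or 4, the adjusted p was 0.0612 to 0.0809. Set against wild type, the double null group had 1.53-fold less Hlf, a log2 difference of -0.62 ± 0.21 (adjusted p = 0.0460), which did not pass with slide as a block (adjusted p = 0.0525) or with the replicate number as a block (adjusted p = 0.0545). This fall of Hlf was -0.18 on slide 1 (adjusted p = 0.525) and -1.06 on slide 3 (adjusted p = 0.000739). It passed without wild type heart 1 or 2, and not without any of the 4 double null hearts or wild type heart 4 (adjusted p of 0.0614 to 0.107) or wild type heart 3 (-0.38, adjusted p = 0.139). In MuRF1-het hearts Hlf was 0.68 ± 0.21 above wild type (adjusted p = 0.109), and 0.92 without wild type heart 3 (adjusted p = 0.0135).

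The wild type hearts were also compared between their 2 slides. From slide 1 (hearts 1 and 2) to slide 3 (hearts 3 and 4), Dbp was 1.02 higher, Hlf 0.88, Per1 0.61, Per2 0.48 and Nr1d2 0.45, while Arntl was -0.52, Clock -0.33 and Nr1d1 -0.30 apart, all on the log2 scale. For Dbp this was 2.03-fold and for Hlf 1.84-fold. For all 8 genes the 2 hearts of slide 1 and the 2 of slide 3 did not overlap, as was so for 41.2% of all genes. The size of this difference was above that of 99.97% of genes for Dbp, 99.9% for Hlf, 99.6% for Per1, 99.3% for Arntl and 99.1% for Per2. It was over 0.5 for 4 of the 8 genes and for 0.787% of all genes. With 2 hearts on each slide no gene passed across the array (0% of 12329 genes), the adjusted p being 0.999 for each of the 8 genes, and the unadjusted p was 0.00137 for Dbp and 0.000980 for Hlf.

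Double null hearts of the same slides did not show this pattern in Dbp or Hlf, which differed by -0.00 and -0.00 between slides 3 and 1. Nr1d1 was 0.61 higher in double null hearts on slide 3 than on slide 1 (adjusted p = 0.289; 0.162% of all genes passed there, and none of the 8), and in the other 7 genes the difference was between -0.16 and 0.09. The hearts of the slides did not overlap for 3 of the 8 genes (Clock, Per2 and Nr1d1) there, against 42.3% of all genes. The change from slide 1 to slide 3 differed between wild type and double null by 1.03 ± 0.36 (SE) for Dbp, 0.88 ± 0.30 for Hlf and -0.91 ± 0.40 for Nr1d1. None of the 8 passed (adjusted p of 0.769 to 0.816; 0.00811% of all genes did), with unadjusted p-values of 0.0135, 0.0106 and 0.0372 for those 3. Each slide held both genotypes, so the pairs of hearts differ in slide and in anything else that went with it, and these cannot be told apart.

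**Figure D3:**
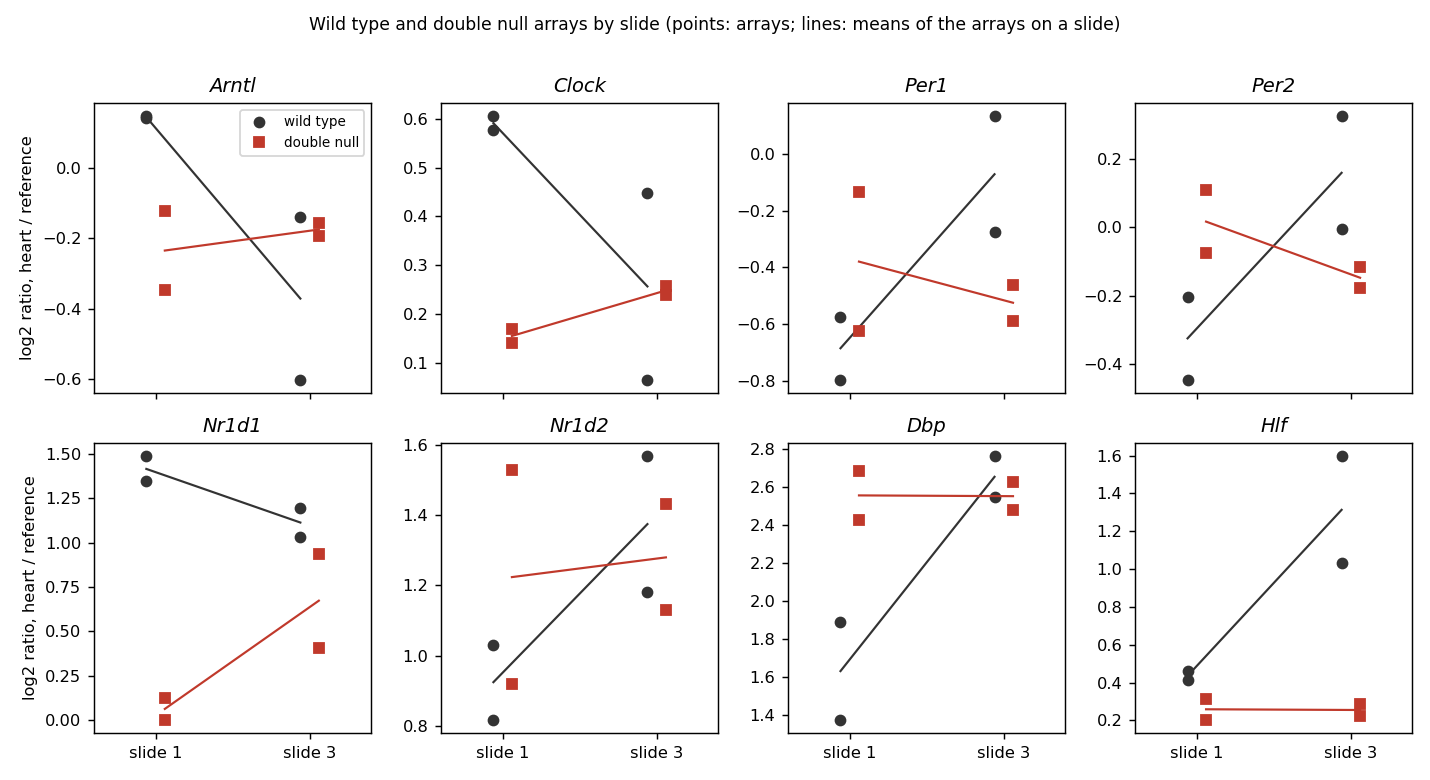
Log2 ratio of heart to reference for the 8 genes in wild type (circles) and double null (squares) hearts on slides 1 and 3, with lines between the means of the 2 hearts on a slide. In wild type Dbp is 1.02 higher and Arntl -0.52 apart on slide 3, while the double null lines of Dbp and Hlf are flat.

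The spread between hearts was wide for most of these genes in the wild type group, and in the other groups it depended on the gene. The residual SD over the 4 groups was 0.40 for Dbp, 0.37 for Nr1d2, 0.35 for Nr1d1 and 0.33 for Hlf, above that of 94.8%, 93.5%, 92.2% and 90.4% of genes, against 0.16 for the median gene. It was 0.28 for Per1, 0.22 for Arntl, 0.21 for Per2 and 0.19 for Clock, the last above 60.8% of genes. In the wild type group the SD of Dbp, Hlf, Per1 and Arntl was above that of 99.8%, 99.7%, 99.3% and 99.0% of genes. In the double null group the SD of Dbp was above that of 22.9% of genes and that of Hlf above 2.89%, with Clock, Arntl and Per2 above 3.45%, 15.2% and 23.5%. Double null Per1, Nr1d2 and Nr1d1 lay above 56.2%, 69.6% and 87.4% of genes. In the MuRF1-het group the SD of Dbp, Arntl and Per2 was above that of 39.5%, 48.7% and 49.7% of genes. There Clock, Nr1d2, Nr1d1, Hlf and Per1 lay above 68.4%, 76.4%, 83.3%, 84.4% and 90.0%. In the MuRF2-het group the share ran from 62.8% for Arntl to 96.7% for Nr1d2, with Nr1d1 at 94.2% and Dbp at 92.0%. Nr1d1 was spread most in the MuRF2-het (0.50) and double null (0.42) groups. The deviation of Nr1d1 from its group mean went with the number of probes above background (r = 0.63, rho = 0.39 over 16 arrays, permutation p = 0.084 for r, 0.553 after adjustment over the 8 genes, and r = 0.62 without the 2 dimmest arrays); for the other 7 genes r was between -0.29 and 0.47 and none passed.

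The deviations from the group mean were then compared between genes over the 16 arrays, which removes the differences between genotypes. All ratios share a reference pool, and hearts of a group share slides. Of the 28 pairs among the 8 genes, 9 passed by Pearson's r (permutation test, adjusted over 28 pairs), 5 positive and 4 negative, and 6 of these also by Spearman's rho. An r at least as far from 0 as the smallest that passed, 0.67, was found for 16 of the 28 pairs (57.1%) and for 12.1% of all pairs among 12271 genes, given as a description. Arntl and Clock deviated together (r = 0.85, rho = 0.77, adjusted p = 0.0119 and 0.0189). Both ran opposite to Per2, Arntl at r = -0.92 (rho = -0.87, adjusted p = 0.0077 and 0.0189) and Clock at r = -0.87 (rho = -0.86, adjusted p = 0.00644 for each). Hearts high in Arntl for their genotype tended to be low in Per2. The probes of Arntl and Per2 were each above background on 7 of the 16 arrays, so most of these values lay near background.

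Arntl also ran opposite to Hlf (r = -0.87, rho = -0.76, adjusted p = 0.0236 and 0.0533) and to Per1 (r = -0.82, rho = -0.71, adjusted p = 0.0203 and 0.0533). Per1 and Per2 deviated together (r = 0.80, rho = 0.62, adjusted p = 0.0241 and 0.0866). Nr1d2 went with Dbp (r = 0.76, rho = 0.79, adjusted p = 0.0203 and 0.0189) and with Hlf (r = 0.67, rho = 0.75, adjusted p = 0.0324 and 0.0143). The remaining pair that passed was Clock and Nr1d1 (r = 0.67, rho = 0.71, adjusted p = 0.0241 and 0.0189), whereas Nr1d1 and Nr1d2 had r = -0.05. Dbp and Hlf had r = 0.75 (rho = 0.76), and Arntl and Dbp r = -0.76 (rho = -0.66), neither passing (adjusted p of 0.0936 and 0.0647 for r).

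These relations were recomputed with the 2 arrays farthest out on the first gene removed and with each slide centred within its group. Arntl and Per2 had r = -0.85 and -0.88, and Arntl and Clock r = 0.74 and 0.79. Clock and Per2 had r = -0.80 and -0.82, Arntl and Hlf -0.71 and -0.75, and Arntl and Per1 -0.64 and -0.67. Per1 and Per2 had r = 0.60 and 0.64, Nr1d2 and Dbp 0.74 and 0.79, Nr1d2 and Hlf 0.74 and 0.67, and Clock and Nr1d1 0.48 and 0.66. Over all 28 pairs, 25 kept the sign of r when slides were centred, and 25 kept it with the scanner software's own log ratio, on which Arntl and Per1 dropped to r = -0.27 and Clock and Nr1d1 to r = 0.22.

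**Figure D4:**
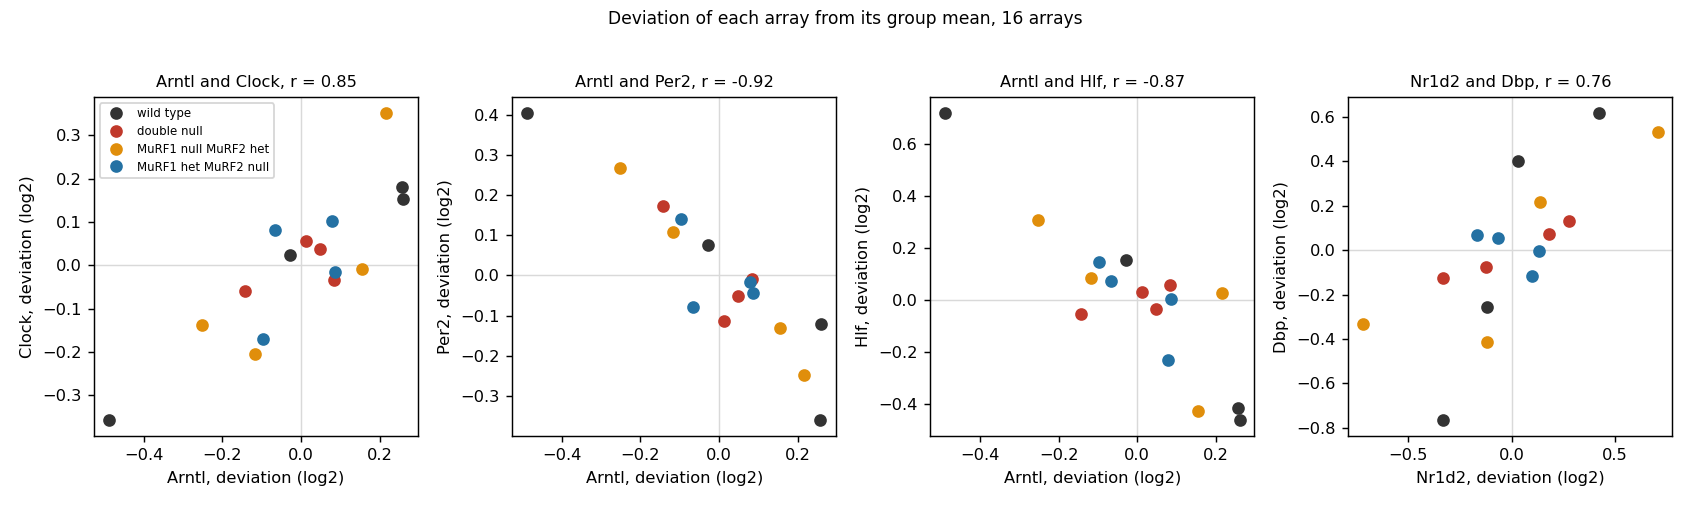
Deviation of each of the 16 hearts from its genotype mean (log2) for 4 pairs of genes, coloured by group. Arntl and Clock go together (r = 0.85), Arntl runs opposite to Per2 (r = -0.92) and Hlf (r = -0.87), and Nr1d2 and Dbp go together (r = 0.76); wild type heart 3 lies at the far end of the 3 panels with Arntl.

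**Figure D5:**
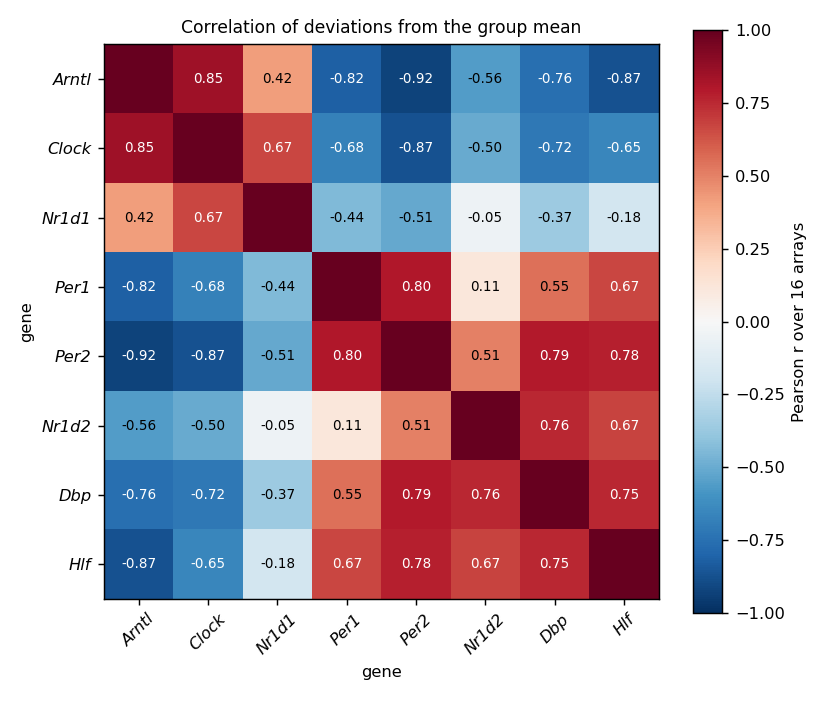
Pearson r of deviations from the genotype mean over 16 arrays for each pair of the 8 genes, from -1 (blue) to 1 (red). Arntl and Clock form a positive pair that is negative with Per1, Per2, Nr1d2, Dbp and Hlf, while Nr1d1 has r of 0.42 and 0.67 with that pair.

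Arntl and Dbp were each set against the other 12329 genes in the same way, as a description. The gene most opposite to Arntl on the whole array was Per2, and Hlf came second. Per1 was 9th from that end, Tef 10th, Ciart 14th, Cry2 15th and Dbp 29th, and Clock was the 3rd most alike. The 5 named genes most like Arntl were Spcs2 (r = 0.89), Ddrgk1 (0.86), Clock (0.85), Ifitm7 (0.85) and Pop4 (0.85). After Per2 and Hlf the most opposite were Sh2b3 (-0.86), Usp2 (-0.86) and Pik3r1 (-0.85).

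For Dbp the most alike were Atg101 (r = 0.86), Tef (0.85), Ccdc71l (0.84), Cys1 (0.84) and Ints8 (0.83), with Tef, the third D-box factor of the DBP and HLF family, in 2nd place. Per2 was 9th most like Dbp, Ciart 10th, Nr1d2 19th, Hlf 21st and Cry2 31st. The most opposite to Dbp were Krtcap2 (-0.88), Dtnbp1 (-0.83), Cavin3 (-0.82), Il11ra1 (-0.82) and Tex264 (-0.81), and Arntl was 18th from that end.

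Of 17 further clock genes listed, among them the Cry repressors, the ROR activators, the casein kinases that act on PER, and NFIL3, which competes with DBP at the D-box, 12 were tested and 5 were above background on no array. In double null against wild type 1 of 12 passed, where 22.3% of all genes did: Csnk1e fell by 0.66 ± 0.19 (SE; adjusted p = 0.0239), with groups that overlapped, a call lost without double null heart 1 or 4 or wild type heart 2, 3 or 4 (adjusted p of 0.0504 to 0.0699). None of the 12 passed by limma in MuRF2-het or MuRF1-het against wild type or in double null against MuRF2-het, with 0, 5 and 0 at an unadjusted p under 0.05, against 23.1%, 16.2% and 9.72% of all genes. The medians of the list in these 4 comparisons were -0.09, 0.00, 0.19 and -0.04.

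Between double null and MuRF1-het hearts 5 of the 12 passed, where 26.3% of all genes did. Tef fell by 1.01 (adjusted p = 0.00896), Csnk1e by 1.04 (adjusted p = 0.00166), Cry2 by 0.44 (adjusted p = 0.0148) and Timeless by 0.30 (adjusted p = 0.0199), while Nfil3 rose by 0.86 (adjusted p = 0.00394). Tef was thus lower beside Hlf in this comparison, and Nfil3 higher. Timeless was lost without MuRF1-het heart 1 or 4 (adjusted p of 0.0656 and 0.0594) and had a difference of -0.09 when all its probes were averaged. Between MuRF2-het and MuRF1-het hearts 2 of 12 passed, against 8.54% of all genes: Csnk1e at -0.65 (adjusted p = 0.0470) and Nfil3 at 0.62 (adjusted p = 0.0483). With a heart left out, Csnk1e passed there in 1 of 8 fits and Nfil3 in 0 of 8 (adjusted p of Csnk1e from 0.0275 to 0.133 and of Nfil3 from 0.0527 to 0.137).

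Of 8 listed genes known to cycle downstream of the clock, 7 were tested. In double null against wild type 2 of the 7 passed, against 22.3% of all genes. Alas1, the first enzyme of haem synthesis, fell by 0.87 ± 0.11 (SE; adjusted p = 0.000221) and Usp2, a deubiquitinase, by 0.71 ± 0.24 (adjusted p = 0.0421), while the median of the list was 0.07. The call on Usp2 was lost without double null heart 1, 2 or 4 or wild type heart 2, 3 or 4 (adjusted p of 0.0555 to 0.134), and its difference without wild type heart 3 was -0.46. In MuRF1-het against wild type Pdk4, which restrains glucose oxidation, fell by 1.65 ± 0.25 (adjusted p = 0.00510) and Cdkn1a, a cell cycle inhibitor, by 0.82 ± 0.15 (adjusted p = 0.00981), with a list median of -0.37; these 2 of 7 compare with 1.95% of all genes. Between double null and MuRF1-het hearts 4 of 7 passed, against 26.3% of all genes: Alas1 was lower by -0.46 and Usp2 by -1.19, and Pdk4 was higher by 1.86 and Cdkn1a by 0.91 (adjusted p of 0.000218 to 0.00771). Alas1 was also lower in double null than in MuRF2-het hearts, by -0.58 (adjusted p = 0.0381; 1 of 7, against 0.349% of all genes), which was lost without double null heart 3 or 4 or MuRF2-het heart 2, 3 or 4 (adjusted p of 0.0554 to 0.157). Between MuRF2-het and MuRF1-het hearts 2 of 7 passed, against 8.54% of all genes: Pdk4 was 1.88 higher (adjusted p = 0.00185) and Cdkn1a 0.69 higher (adjusted p = 0.0141), Cdkn1a being lost without MuRF1-het heart 1 (adjusted p = 0.0501). None of the 7 passed by limma in MuRF2-het against wild type, with 1 at an unadjusted p under 0.05 (23.1% of all genes).

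Glucocorticoids, whose level follows the time of day and stress, also act on Per1, so 8 of their target genes were listed, of which 7 were tested. Per1 itself passed nowhere, as given above. In double null hearts 1 of the 7 passed against wild type and 2 against MuRF1-het, where 22.3% and 26.3% of all genes did. Cebpd was 0.73 ± 0.24 (SE) higher in double null than in wild type hearts (adjusted p = 0.0420) and 0.84 ± 0.24 higher than in MuRF1-het hearts (adjusted p = 0.0197). The first call on Cebpd was lost in 6 of 8 fits with a heart left out, all but those without double null heart 2 or wild type heart 3, and the second without MuRF1-het heart 2 (adjusted p = 0.0676). Mt2, a metallothionein, was 1.52 ± 0.43 higher in double null than in MuRF1-het hearts (adjusted p = 0.0188), which was lost without double null heart 2 (1.16, adjusted p = 0.0516) and was 0.12 with brightness as a covariate (adjusted p = 0.732). None of the 7 passed by limma in the other 4 comparisons, with 1 in each at an unadjusted p under 0.05. Of all genes, 23.1% and 16.2% had such a p in MuRF2-het and MuRF1-het against wild type. It was 9.72% in double null against MuRF2-het and 28.4% in MuRF2-het against MuRF1-het. The medians of the list were 0.20 in double null against wild type and 0.22 against MuRF1-het.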

How the data were processed

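The arrays are 2-colour Agilent scans, and the deposited scanner files hold, per the file headers, spot intensity and background intensity in each dye, background flags and a log10 ratio of red over green made by Agilent Feature Extraction (9.1.3.1 on 12 arrays, 9.5.3.1 on 4). The labelling protocol names a Cy3 nucleotide alone, and the channel entries of the labels, heart in Cy5 and pups in Cy3, were followed. Per the labels, 50 ng of RNA was amplified. The deposited series table equals the log2 of that ratio minus each probe's median over arrays, and served as an alternative.

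Mean and background intensity were corrected with normexp (offset 50) and normalised by loess within each array in limma 3.58.1 (R 4.3.3), leaving out 1639 control spots and 168 flagged ones. Spots of a probe were averaged, and a gene took its kept probe with the highest mean Cy5. The offset makes fold changes of dim probes too small. The 4 group means were fitted over 16 arrays with lmFit and eBayes, with Benjamini-Hochberg adjustment over 12330 genes and a threshold of 0.05. Correlations between genes used 1e+05 permutations. The fit was tested on simulated data.

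All members and each listed gene that passed were named; for likeness, the 5 genes nearest to and 5 farthest from Arntl and Dbp, clone names skipped. The members and lists were chosen with earlier results of these data known. Symbols were updated through RefSeq (GRCm38.p6). Alternatives covered background, scaling, filters, probes, weights, blocks, slides and single hearts. The number of arrays limits the precision.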

Additional observations from a re-analysis of the deposited data

Results flagged for a closer look

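Of the 32 sets of 4 hearts (8 genes in 4 groups), 0 held a heart that stood apart from the other 3 by Dixon's 95% limit. The effect of genotype against the shared wild type hearts differed between mutant groups in 5 cases, by the test of the difference itself with limma, which amounts to comparing the mutant groups directly. Between double null and MuRF1-het hearts the differences were 0.47 for Arntl, -1.29 for Hlf and -1.10 for Nr1d1. Between MuRF2-het and MuRF1-het hearts they were -0.82 for Hlf and -0.90 for Nr1d1. The MuRF1-het group filled a slide of its own that was read with another software version, so for all 5 the slide and the genotype cannot be told apart.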

How the results depend on the processing

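Of the values of single clock genes under other settings, 948 kept their direction and side of the threshold, 69 lost their call, 37 gained one, 85 uncalled values moved and 1 turned: Per1 in MuRF2-het against wild type, -0.66 with median centring in place of loess, which shifted the median of all genes there to -0.51. Among the named list genes 406 values kept theirs, 116 lost their call, and Cebpd in double null against wild type turned, to -0.39 with median centring, where that shift was -0.49.

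The count of clock genes that passed moved as follows; with probes above background on all 16 arrays only 2 of them, Nr1d2 and Dbp, were left to test, so the counts of 0 there say nothing of Nr1d1, Hlf and Arntl. In double null against wild type (2) it was 0 with brightness as a covariate, with probes above background on all 16 arrays and on slide 1 alone, 4 with median centring, and 1 on Cy5 intensity alone, with the scanner software's log ratio, with no filter, with only the 2 groups fitted, with the replicate block, with scaling between arrays, with the series table, with slide as a block and with the wild type arrays of slide 1 or of slide 3 alone; single hearts left out gave 1 to 2. Of all genes, 55.9% passed there with median centring, 14.8% with the brightness covariate and 0% on slide 1 alone. In the settings that gave 1, 4.88% to 21.7% did, and 12.6% to 29.3% with a heart left out. In MuRF2-het against wild type (0) the count of clock genes was 3 with array weights (17.2% of all genes) and 3 with median centring (59.8%), and 0 to 1 with a heart left out. In MuRF1-het against wild type (1) it was 0 with the software's log ratio, no filter, scaling, the series table or wild type arrays of slide 3 alone (0% to 1.97% of all genes). It was 3 with the brightness covariate (12.2%), wild type arrays of slide 1 alone (0.495%) or without the 2 dimmest arrays (8.44%). It was 5 with array weights (23.9%), 2 with median centring (20.7%), 4 with only the 2 groups (16.8%), and 0 to 3 with a heart left out (0.56% to 1.51%). Between double null and MuRF1-het (3) it was 1 with the brightness covariate (21.1% of all genes) and 0 with probes above background on all arrays (32.3% of the 4678 genes tested there). It was 5 with array weights (51.7%) and 2 to 3 with a heart left out (17.7% to 30.7%). Between MuRF2-het and MuRF1-het (2) it was 0 with the brightness covariate, the software's log ratio, probes above background on all arrays, median centring or the series table (2.34% to 11.1% of the genes tested). It was 1 on Cy5 intensity alone (14.6%) or with an offset of 16 (5.52%), and 0 to 2 with a heart left out (1.65% to 17%).

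For the 17 further clock genes, the share of all genes that passed is again in brackets. Double null against wild type (1) gave 2 on Cy5 intensity alone, with every kept probe and without the 2 dimmest arrays (19.7%, 20.8% and 29.3%). It gave 3 with array weights (49.8%) and 5 with median centring (55.9%). It gave 0 with only the 2 groups, slide 1 alone, slide as a block and wild type arrays of either slide alone (0% to 19.4%), and 0 to 2 with a heart left out (12.6% to 29.3%). MuRF2-het against wild type (0) gave 2 with array weights (17.2%) and 5 with median centring (59.8%). MuRF1-het against wild type (0) gave 2 with the brightness covariate (12.2%), median centring (20.7%) or without the 2 dimmest arrays (8.44%). It gave 1 on Cy5 intensity alone (5.17%) or with wild type arrays of slide 1 (0.495%). It gave 8 with array weights (23.9%), 5 with only the 2 groups (16.8%), and 0 to 1 with a heart left out (0.56% to 1.51%). Double null against MuRF2-het (0) gave 1 with array weights (10%) and 0 to 1 with a heart left out (0.0243% to 2.92%). Double null against MuRF1-het (5) gave 3 with the brightness covariate (21.1%) or probes above background on all arrays (32.3%). It gave 9 with array weights (51.7%), 1 with median centring (7.06%), and 4 to 7 with a heart left out (17.7% to 30.7%). MuRF2-het against MuRF1-het (2) gave 1 with an offset of 16 (5.52%), the replicate block (6.42%) or without the 2 dimmest arrays (10.4%). It gave 0 with median centring (2.86%) or no filter (3.51%), and 0 to 2 with a heart left out (1.65% to 17%).

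Without centring on the group mean, 19 of the 28 gene pairs passed (9 as reported). The median percentile of the 8 genes' spread was 71.4 with the software's log ratio, against 87.3. The number of all genes that passed ranged widely over settings: from 0 (slide 1 alone) to 6896 (median centring) against 2751 for double null and wild type, 4 to 7378 against 127 for MuRF2-het and wild type, 0 to 2944 against 241 for MuRF1-het and wild type, 0 to 1239 against 43 for double null and MuRF2-het, 871 to 6378 against 3244 for double null and MuRF1-het, and 203 to 3136 against 1053 for MuRF2-het and MuRF1-het. Of the genes that passed in double null against wild type 46.0% were higher, and 33.3% with the software's log ratio and 0.3% with median centring. The causes were not tested.

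Hearts of the same number did not deviate together in every group (r of -0.61 to 0.36, the own number being best in 6 of 24). With 4 hearts a group this check could not exclude a pairing by number, and the main fit used none. With the replicate block, Hlf in double null against wild type had an adjusted p of 0.0545 and Dbp in double null against MuRF1-het of 0.0427. The settings on wild type arrays of 1 slide, the dimmest arrays, centring by slide and the spread with the software ratio were chosen after seeing the data. Arntl and Per2 were near background on most arrays, which limits what their differences and correlations can show.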
